A study of Mus musculus with 1505 samples.

Results

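Layer 6 corticothalamic (L6 CT) cells made up 83 of the 1320 neurons that were recorded at 25 °C and sequenced, and 83 of the 1505 neurons of the series. They were taken by their label alone, as every neuron whose transcriptomic type (t-type) begins with L6 CT. Of these, 65 were L6 CT Cpa6, 16 were L6 CT Pou3f2, 1 was L6 CT Gpr139 and 1 was L6 CT Grp. None of the 185 neurons recorded at 34 °C carried such a label. The L6 CT cells were compared with 253 intratelencephalic (IT) cells and 48 extratelencephalic (ET) cells, which the labels call PT. The 35 IT cells of layer 6 and a further 24 L6b cells served as references from the same depth.

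The study patched neurons in acute slices of primary motor cortex from adult male and female mice and injected current steps at 25 °C. It then aspirated the cell contents and sequenced each cell as its own Smart-seq2 library (Patch-seq). The mice were wild-type C57Bl/6 or carried a Viaat, Sst, Vip, Pvalb, Npy, Vipr2, Slc17a8 or Gnb4 Cre driver with the Ai9 reporter. These drivers act mainly in interneurons. The labels give neither the animal nor the genotype of a cell, so cells of the same mouse cannot be told from cells of different mice. A group was for this reason taken as 1 sample, with no test, and the intervals given cover counting error only. The study assigned the t-types from the RNA of the same cells, so the marker levels describe what the label means in these libraries and are not independent of it.

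Corticothalamic neurons of layer 6 are glutamatergic pyramidal cells whose axons run to the thalamus and feed back onto the nuclei that excite the cortex. They are commonly recognised by the forkhead transcription factor Foxp2, the Groucho-type corepressor Tle4 and the neurotensin receptor Ntsr1, whose locus is widely used to drive Cre in them. IT cells connect cortical areas and the striatum, whereas ET cells of layer 5 reach the brainstem and spinal cord. L6b cells lie at the border to the white matter.

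The L6 CT libraries held a median of 1134052 exonic counts, with a lowest of 9361 and a highest of 7794619. The medians of the IT and ET cells were 1106090 and 1232261. When every cell was reduced at random to 200000 exonic counts (thinned), with 1 L6 CT, 13 IT and 4 ET cells too shallow to enter, a median of 5050 genes had a read in L6 CT cells, 6369 in IT cells of layer 6, 6630 in all IT cells and 8441 in ET cells. The recording day and year of a cell were taken from the date that opens its sample title, since no label names them. By these dates the L6 CT cells came from 41 recording days. Of the 83 cells, 82 were recorded in the same calendar year, called the main year here. By contrast, 88 of the 253 IT cells and 5 of the 48 ET cells were from that year. L6 CT and IT cells shared 28 recording days (59 and 49 cells), whereas L6 CT and ET cells shared 0, so that recording day and cell class cannot be told apart in the ET comparison.

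The share of intronic counts also differed between the groups. It had a median of 23.9% in L6 CT cells, with quartiles of 5.28% and 49.1% and a range from 1.83% to 67.5%. The median was 48.7% in IT cells, 46% in IT cells of layer 6 and 52.7% in ET cells. At least 20% of the counts were intronic in 42 of 83 L6 CT cells, 206 of 253 IT cells and 43 of 48 ET cells. Among the cells of the main year alone the medians were 21.7%, 44.5% and 54.3%. Many L6 CT libraries thus held little intronic RNA, and for that reason several comparisons below are also given for cells with at least 20% intronic counts. Whether the intronic share had a part in any difference was not tested.

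**Figure D1:**
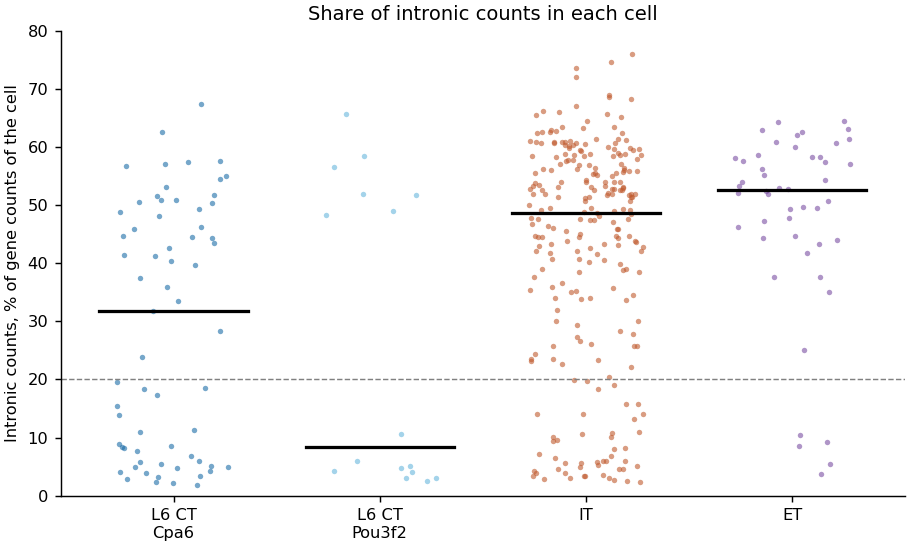
Share of intronic counts in each cell, in percent of its gene counts, for the L6 CT Cpa6, L6 CT Pou3f2, IT and ET cells. Each point is a cell, the black line is the group median and the dashed line marks 20%. The Pou3f2 cells fall into a lower and an upper set with a median of 8.33%, whereas most IT cells lie around their median of 48.7%.

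The 3 genes used to mark the cells were present but not in every cell. Foxp2 (chromosome 6, 14901349 to 15441977, a protein-coding gene by GENCODE M21 on GRCm38, as are the other genes given with positions) stood at 149 counts per 1000000 exonic gene counts (CPM) in the summed L6 CT cells (interval 147 to 151), at 0.911 CPM in IT cells and at 22.1 CPM in ET cells. In single L6 CT cells its median was 82.6 CPM, the quartiles were 0.216 and 228 CPM and the highest cell had 785 CPM. After thinning, 68.3% of L6 CT cells (exact binomial interval 57.1% to 78.1%), 5.00% of IT cells and 54.5% of ET cells had a Foxp2 read. Foxp2 therefore separated L6 CT from IT cells far more than from ET cells, in which a read was common but the level lower. Within recording days the mean was higher in L6 CT cells than in IT cells on 24 of 28 days, and on no day was it lower.

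Tle4 (chromosome 19, 14448150 to 14598051) reached 139 CPM in L6 CT cells, 21.9 CPM in IT cells and 36.9 CPM in ET cells. Its median L6 CT cell had 21 CPM, with quartiles of 0 and 199 CPM. A thinned read was found in 63.4% of L6 CT, 37.9% of IT and 70.5% of ET cells, so that Tle4 was shared by the 3 classes and differed in amount. Cpa6 (chromosome 1, 10324720 to 10719945), a secreted carboxypeptidase, was sparse, with 17.4 CPM in L6 CT, 1.43 CPM in IT and 0.861 CPM in ET cells and a median of 0 in each. Of the 83 L6 CT cells, 19 had a read of all 3 genes, 35 of a pair of them, 15 of 1 and 14 of none. The corresponding numbers were 7, 26, 116 and 104 of 253 IT cells, and 12, 15, 16 and 5 of 48 ET cells.

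The wider list of 12 L6 CT markers was clearer than the 3 genes. A gene was counted as past the fold where log2((CPM + 1)/(CPM + 1)) was at least 1 or at most -1, if the group with more had 10 CPM or above and reads in at least 10% of its cells. This is a scale that understates the change of low genes. Against IT and ET cells together, 11 of the 12 markers passed the filter on low values and all 11 were higher in L6 CT cells, with a median log2 fold of 3.00. Over all 10941 genes that passed it, 515 (4.71%) were higher and 1807 (16.5%) were lower in L6 CT cells, and the median log2 fold was -0.12. The marker that did not pass the filter was Ntsr1, which had 9.07 CPM in L6 CT, 5.45 CPM in IT and 25.2 CPM in layer 6 IT cells, and was read in 14.5% of L6 CT cells. In shared recording days, which held no ET cell, all 12 markers passed the filter, and 11 were higher and 1 lower. The summed level of the 12 markers had a median of 2085 CPM per L6 CT cell and was at 0 in none, against 219.5 CPM in IT cells, 415 CPM in ET cells and 954 CPM in L6b cells. The L6 CT range was 172 to 6369 CPM, and that of the IT cells was 0 to 1760.0 CPM, so single cells of the classes overlapped.

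Markers of neighbouring and unwanted cell types were set beside these. Their counts are read against all genes, of which 16.5% were lower and 4.71% higher in L6 CT cells. The 8 L6b markers, led by Ccn2, Nxph4 and Cplx3, each had a median of 0 in L6 CT cells, and their sum was at 0 in 44 of 83 cells, while its median was 1413 CPM in L6b cells. All 10 GABAergic markers had a median of 0 in L6 CT cells. All 9 microglial markers were lower in L6 CT than in IT and ET cells, with a summed median of 157 CPM per L6 CT cell (range 0 to 3078), 343 CPM in IT cells (0 to 15183) and 359 CPM in ET cells (7.69 to 4263). On shared days, which held no ET cell, 4 of 8 tested microglial markers were lower. The oligodendrocyte sum went the other way against IT cells, with medians of 756 CPM in L6 CT, 376 CPM in IT and 806 CPM in ET cells, and the myelin gene Mobp stood at 413, 145 and 284 CPM. Of the 8 astrocyte markers 6 were tested and 3 (Gja1, Slc1a3 and Apoe) were lower. How far such RNA contributed to the differences was not tested.

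**Figure D2:**
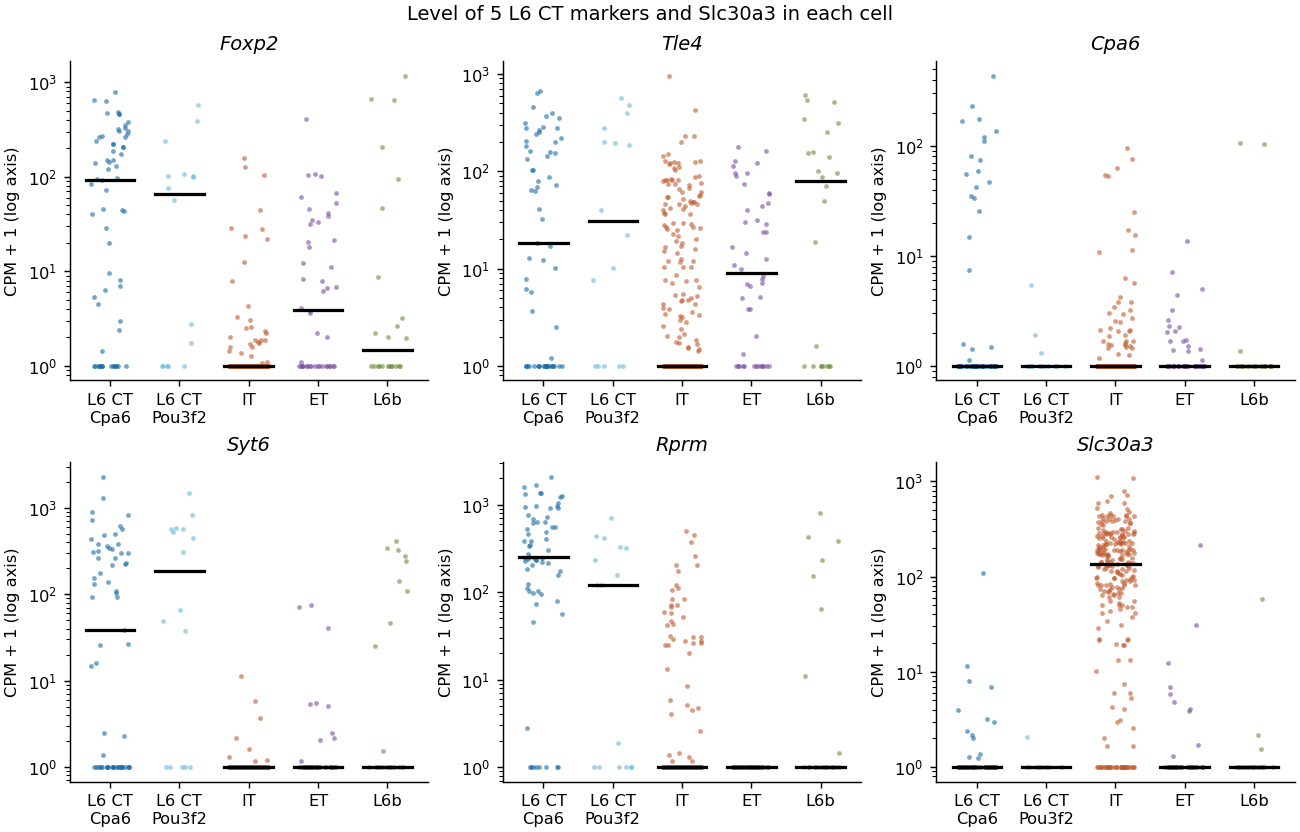
Level of Foxp2, Tle4, Cpa6, Syt6, Rprm and Slc30a3 in each cell, as CPM + 1 on a log axis, for the L6 CT Cpa6, L6 CT Pou3f2, IT, ET and L6b cells. Each point is a cell and the black line is the group median. Syt6 and Rprm are near the bottom of the axis in most IT and ET cells, Slc30a3 is high in IT cells with a median of 134 CPM, and every gene has L6 CT cells without a read.

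By fold over IT and ET cells together the highest genes were Syt6, Sema5a, Rprm, Foxp2 and Col5a1. Syt6 (chromosome 3, 103575231 to 103645569), which encodes a synaptotagmin, had 235 CPM in L6 CT cells, 0.162 CPM in IT cells and 2.47 CPM in ET cells, a log2 fold of 7.12. Its median L6 CT cell had 63.8 CPM and the upper quartile was 337 CPM. Reads of Syt6 were present in 61% of thinned L6 CT cells and in 0.833% of IT and 9.09% of ET cells, so few IT or ET cells had it, while more than 1 in 3 L6 CT cells lacked it. L6b cells had Syt6 too, with a read in 10 of 24 cells and up to 414 CPM. Sema5a, a transmembrane semaphorin that guides growing axons, had 144 CPM in L6 CT, 3.59 CPM in IT and 1.30 CPM in ET cells. The collagen gene Col5a1 had 211 CPM against 13.7 CPM in IT and 0.115 CPM in ET cells, and Col12a1 154 CPM against 14 and 17.1 CPM.

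Rprm (chromosome 2, 54084093 to 54085552), a gene induced by p53 that halts the cell cycle, was read in 83.1% of L6 CT cells, the largest share among the 12 markers before thinning. It had 436 CPM in L6 CT cells, with a median cell of 238 CPM and quartiles of 79.9 and 589 CPM. In IT cells it had 18.4 CPM, and in ET cells 0 counts were found in 48 cells. Taken against a floor of 3 counts over the ET group, the L6 CT level was at least 17746-fold higher. In thinned cells a read was present in 80.5% of L6 CT and 13.3% of IT cells, and in 0 of 44 ET cells, which allows a share of up to 8.04% (exact binomial). Rprm was higher in L6 CT than in IT cells on 26 of 28 shared days and lower on none.

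The other high genes are known for varied roles, several of them outside the brain. Ighm, the constant region gene of the immunoglobulin mu heavy chain, had 567 CPM in L6 CT cells with a median cell of 446 CPM, and 38.8 and 19.9 CPM in IT and ET cells. It was higher in L6 CT cells on 27 of 28 shared days and lower on none. Ppp1r1b, which encodes the dopamine-regulated phosphatase inhibitor DARPP-32, had 250.3, 39 and 12.3 CPM, and a read in 85.4% of thinned L6 CT cells. The myosin light chain gene Myl4 had 238, 38.3 and 6.03 CPM, and the sulfotransferase gene Hs3st4, which modifies heparan sulfate, 60.5, 5.32 and 1.32 CPM. Zfpm2, a cofactor of GATA factors, had 119, 10.5 and 9.29 CPM. Gadd45a, a stress-induced growth arrest gene, closed the 15 highest genes with 73.5, 15.2 and 3.12 CPM and a log2 fold of 2.47.

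These 15 genes were chosen for their fold, so their values are a description. All 15 remained past the fold in cells of the main year, where the choice had already required the same sign. They also did in shared recording days, which held no ET cell and so compare L6 CT with IT cells only. They did so too in cells with at least 20% intronic counts, without the deepest cell of each group and with every cell weighted equally. In intronic counts 13 of 15 did. Spsb1 reached a log2 fold of 0.45, and Rprm could give no value, since its exons (1460 bases) fill its whole span. The gene Fancd2 of the Fanconi DNA repair pathway was the least even of the 15, since it was higher on 13 and lower on 8 of 28 days and its level was 307 CPM in the Pou3f2 and 45.4 CPM in the Cpa6 t-type. L6b cells had some of the same RNAs, with 100.3 CPM of Foxp2, 169 CPM of Tle4, 67.7 CPM of Syt6, 70.2 CPM of Rprm and 127 CPM of Zfpm2, read in 12, 16, 10, 8 and 16 of 24 cells. The 35 IT cells of layer 6 had 0.156, 15.5, 0.156, 2.05 and 6.22 CPM of these genes, so the IT cells at the same depth did not carry them at the L6 CT level.

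**Figure D3:**
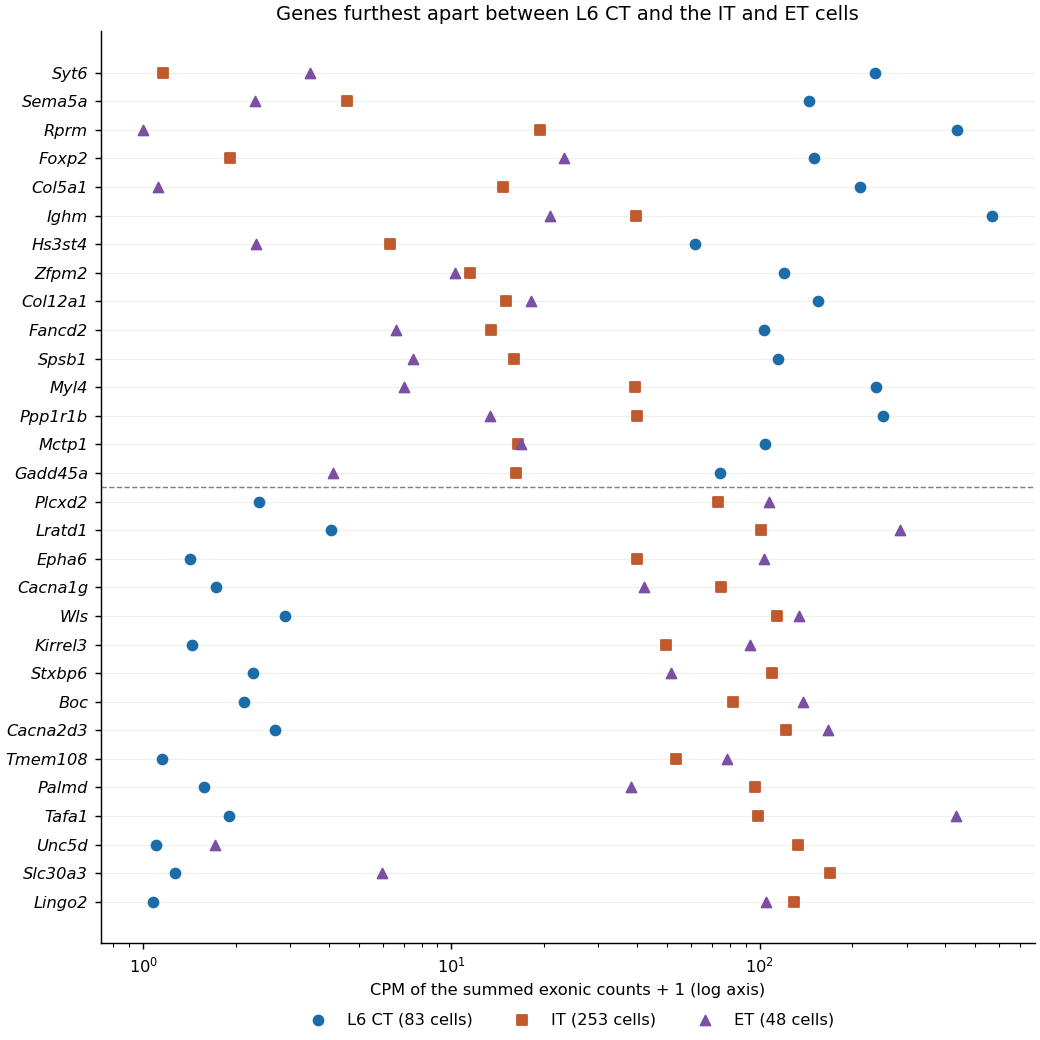
Level of the 15 highest and 15 lowest genes of L6 CT cells against IT and ET cells together, as CPM of the summed exonic counts + 1 on a log axis. Circles are the 83 L6 CT cells, squares the 253 IT cells and triangles the 48 ET cells, and the dashed line separates the 2 sets. L6 CT sits to the right of both other classes for the upper 15 genes and to the left for the lower 15, and the 2 other classes lie apart for Slc30a3 and Unc5d.

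The genes that were lowest in L6 CT cells were nearly absent from them. Slc30a3 (chromosome 5, 31086106 to 31108237), which encodes the zinc transporter of synaptic vesicles, had 0.269 CPM in L6 CT, 168 CPM in IT and 4.95 CPM in ET cells. A read was left in 6.10% of thinned L6 CT cells, 85% of IT and 13.6% of ET cells. The netrin receptor gene Unc5d (chromosome 8, 28646717 to 29219636) likewise had 0.102, 132 and 0.705 CPM. For these 2 genes L6 CT and ET cells were both low, so the contrast was with IT cells.

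For other genes L6 CT cells stood apart from both classes. Lingo2 (chromosome 4, 35706647 to 36951747), a leucine-rich-repeat membrane protein, had 0.0727 CPM (10 counts in 83 cells), 128 CPM in IT and 104 CPM in ET cells. It was read in 0 of 82 thinned L6 CT cells, which allows a share of up to 4.40%, against 72.9% of IT and 68.2% of ET cells. Tafa1, a small secreted protein, had 0.901, 98 and 431 CPM, and Tmem108 had 0.153, 52.7 and 77.2 CPM. The Wnt carrier gene Wls (1.89, 113 and 133 CPM), the adhesion gene Kirrel3 (0.443, 48.6 and 91.8 CPM) and the ephrin receptor gene Epha6 (0.414, 38.9 and 102 CPM) followed the same order.

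All 15 lowest genes kept a log2 fold of -1 or less in each setting named above for the highest ones, and 14 did so in intronic counts, where Lratd1 reached -0.82. In L6b cells Tmem108 had 56.9 CPM, Wls 65.4 CPM and Kirrel3 45.4 CPM in the sum, each with a read in 8 of 24 cells and a median of 0. The L6b sum of Cacna2d3, 88.7 CPM, was made mostly by a cell with 1056 CPM, and 15 of 24 cells had no read. Lingo2 was lower in L6 CT than in IT cells on 20 of 28 days and higher on none. The same counts were 20 and 0 days for Unc5d, 22 and 3 for Slc30a3, and 21 and 0 for Cacna1g.

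The 250 bases before the start site are shown for 3 of these genes, as an example that was high in L6 CT cells with no match to the motifs searched (Rprm), the 1 high gene with a match (Gadd45a), and 1 of the 2 low genes with a match (Slc30a3, from its second annotated start site). They are RefSeq sequences of GRCm38.p6 on the minus strand, with motif matches in capitals.

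Rprm, chr2:54085553-54085802: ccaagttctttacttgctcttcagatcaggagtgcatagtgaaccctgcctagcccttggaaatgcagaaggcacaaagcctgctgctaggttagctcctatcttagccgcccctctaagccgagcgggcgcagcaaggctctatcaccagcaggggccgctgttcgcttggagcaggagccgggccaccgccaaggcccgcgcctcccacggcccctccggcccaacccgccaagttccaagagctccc

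Gadd45a, chr6:67037408-67037657: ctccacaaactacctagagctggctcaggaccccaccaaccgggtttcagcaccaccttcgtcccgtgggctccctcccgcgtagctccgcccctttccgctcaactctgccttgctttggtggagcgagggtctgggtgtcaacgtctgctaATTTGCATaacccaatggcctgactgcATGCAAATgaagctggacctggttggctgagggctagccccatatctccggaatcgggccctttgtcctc

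Slc30a3, chr5:31093528-31093777: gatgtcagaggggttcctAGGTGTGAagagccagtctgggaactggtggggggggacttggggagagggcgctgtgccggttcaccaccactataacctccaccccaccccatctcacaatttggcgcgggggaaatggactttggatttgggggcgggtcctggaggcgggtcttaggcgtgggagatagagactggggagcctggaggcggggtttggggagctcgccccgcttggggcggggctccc

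The motifs were the forkhead core TGTTTAC, the T-box element AGGTGTGA and the POU octamer ATGCAAAT, searched on both strands with no overlap between the 3. They fit the families of Foxp2, Tbr1 and Pou3f2 and occurred in 3.65%, 1.28% and 1.74% of 32851 promoters. Of the 15 high genes 9 had a promoter entry, with 0, 0 and 1 matches, and of the 15 low genes 10 had one, with 0, 2 and 0 matches. A gene was counted if any of its start sites had a match, whereas the percentages are per promoter entry, so the units differ. The search took the whole entry, of which only the bases before the start site are shown. The capitals in Gadd45a are an octamer on each strand, starting 97 and 70 bases before the start site, and those in Slc30a3 a T-box element 232 bases before it.

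Transcription factors were found on both sides. Of 29 tested members of a list of 34 cortical transcription factors, 8 were higher and 8 lower in L6 CT cells (median log2 fold 0.03), against 4.71% and 16.5% of all genes. With at least 20% intronic counts per cell 7 were higher and 7 lower. The higher set held Foxp2, Tle4, Zfpm2, Tbr1, Bcl11b, Otx1, Nfia and Zfhx3. Bcl11b, which specifies subcerebral projection neurons, had 75.4 CPM in L6 CT, 5.59 CPM in IT and 101 CPM in ET cells, and Otx1 had 34.3, 3.68 and 35.8 CPM. These 2 factors were therefore common to L6 CT and ET cells and low in IT cells. Tbr1, a T-box factor of early-born deep-layer neurons, had 142 CPM in L6 CT and 77.6 CPM in IT cells, and was lowest in ET cells. Of the lower set, Cux2, an upper-layer homeobox gene, had 1.49 CPM against 89.5 CPM in IT and 6.16 CPM in ET cells, and Rorb, a layer 4 nuclear receptor, had 3.93, 86.6 and 52.6 CPM. Etv1 had 38.2, 83.3 and 219 CPM.

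Of the IT markers 9 of 12 tested were lower in L6 CT cells and 0 higher. Of the ET markers 5 of 7 were lower and Bcl11b was higher, where 16.5% of all genes were lower and 4.71% higher. Against ET cells alone, 3 of 8 IT markers were lower and 2 (Penk and Deptor) higher, with 22.1% and 14.2% over all genes. Against IT cells alone, 3 of 5 ET markers were lower and 2 (Bcl11b and Fezf2) higher, with 15.5% and 4.75% over all genes. The ET marker Slco2a1 changed direction with the year, since its log2 fold was -1.80 in all cells and 0.87 in those of the main year. The vesicular glutamate transporter gene Slc17a7 had 855 CPM in L6 CT, 531 CPM in IT and 202 CPM in ET cells, and a read in 96.3% of thinned L6 CT cells.

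Ion channel genes were mostly level or lower in L6 CT cells. None of 12 sodium channel genes passed the fold in either direction (median -0.01), nor did any of the 7 tested heat-shock or 14 immediate early genes. In cells with at least 20% intronic counts 2 sodium channel genes were higher and 1 lower. Of 32 tested voltage-gated potassium channel genes 12 were lower and 1, Kcnip2, was higher (median -0.65), where 16.5% and 4.71% of all genes were. Restricted to cells with at least 20% intronic counts, 9 of 33 were lower and 1 higher, with a median of -0.22. The modulatory subunit gene Kcng1 had 0.995 CPM in L6 CT, 11.7 CPM in IT and 149.5 CPM in ET cells, and Kcnip4, which encodes a partner of Kv4 channels, had 179, 694 and 749.5 CPM. Kcnip2 had 104, 65.5 and 1.95 CPM and its excess was against ET cells, since the log2 fold was 0.66 against IT cells alone. Of 18 other potassium channel genes 4 were lower (Kcnj2, Kcnj4, Kcnj10 and Kcnk12) and 1 higher, the background (leak) channel gene Kcnk2 with 48.7, 22.1 and 7.17 CPM. The numbers were 3 and 5 in cells with at least 20% intronic counts.

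Of 16 tested calcium channel genes 9 were lower and 0 higher (median -1.14), against 16.5% and 4.71% of all genes. Cacna1g and Cacna1h, pore subunits of low-threshold T-type channels, had 0.727 and 2.33 CPM in L6 CT cells. The values in IT cells were 74.2 and 12.1 CPM, and in ET cells 41.3 and 108 CPM. Cacna2d3, an auxiliary subunit, had 1.67, 120.4 and 166 CPM and was read in 2.44% of thinned L6 CT cells, 74.6% of IT and 90.9% of ET cells. Among cells with at least 20% intronic counts 7 of 16 were lower, and in the cells of the main year 8 of 16.

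Receptors and peptides gave a mixed picture. Of 11 tested receptors for monoamines, 3 were higher (Htr1f, Drd1 and Drd5) and 5 lower in L6 CT cells, against 4.71% and 16.5% of all genes. The numbers were 3 and 3 of 10 in the main year and 2 and 3 of 10 in cells with at least 20% intronic counts. Drd1, the dopamine receptor coupled to cAMP, had 72.8 CPM in L6 CT, 13.3 CPM in IT and 0.754 CPM in ET cells, but was read in 30.5% of thinned L6 CT cells and stood at 264 CPM in L6b cells. Drd5 had 16.4, 0.0762 and 0.623 CPM and a read in 8.54% of thinned L6 CT cells. Its sum therefore rests on few cells. The serotonin receptor gene Htr1f had 74.5, 20.7 and 43.8 CPM.

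Among metabotropic glutamate receptors Grm2, a presynaptic autoreceptor, had 3.10 CPM in L6 CT against 96.2 CPM in IT and 31.3 CPM in ET cells, whereas Grm8 had 151, 56.3 and 72.2 CPM. In all, 4 of these 7 genes were lower and 1 was higher. Over all genes 16.5% were lower and 4.71% higher, and the counts below are read against the same shares. Of 13 ionotropic glutamate receptor genes only the kainate subunit gene Grik3 was higher (64.9, 21.7 and 20.3 CPM) and only the AMPA subunit gene Gria4 lower (55.9, 222 and 26.3 CPM), the latter against IT cells. The nicotinic subunit gene Chrna4 had 109 CPM in L6 CT and 29.6 CPM in IT cells, with ET cells in between. Of 5 tested neuropeptide genes 3 were lower, and Adcyap1, which encodes PACAP, had 4.37, 94.5 and 371 CPM. The bombesin-like peptide gene Grp was the 1 higher peptide with 19.2, 0.391 and 0.0656 CPM and a read in 15.9% of thinned L6 CT cells. The corticotropin-releasing factor receptor gene Crhr1 had 0.603, 40.6 and 27.4 CPM.

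Axon guidance genes held many lower members. Of 46 tested, 26 were lower and 5 higher in L6 CT cells (median -1.30), against 16.5% lower and 4.71% higher over all genes. Lower members included receptors for netrin, Slit and semaphorin signals, namely Unc5c (5.20, 74.9 and 178 CPM in L6 CT, IT and ET cells), Robo2 (15.1, 160.5 and 220.3 CPM) and Nrp2 (0.385, 29.4 and 1.77 CPM). The netrin receptor gene Dcc went the other way with 49.8, 16.9 and 0.689 CPM, as did Sema5b with 55.7, 22.9 and 3.52 CPM and Nrp1 with 192, 54.3 and 193 CPM. Of the netrin receptor genes Dcc, Unc5c and Unc5d, L6 CT cells thus had Dcc and little of the others. Unc5a, also in the list, was not past the fold in either direction. In the cells of the main year, 24 of 45 were lower and 6 higher, where the share over all genes was 16.8% and 5.62%. In cells with at least 20% intronic counts 21 of 46 were lower and 11 higher, with 16.3% and 7.55% over all genes.

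Other contact and synapse genes had both directions. Of 20 cadherin genes 9 were lower and 3 higher (median -0.65), against 16.5% and 4.71% of all genes, with Cdh8 at 10.2, 67.5 and 124 CPM and Cdh18 at 71, 23.4 and 25.6 CPM. In cells with at least 20% intronic counts 6 were lower and 3 higher, with a median of 0.05. Of 24 synaptic organizers 9 were lower and 2 higher, and 10 and 1 of 23 in those cells. The neurexophilin gene Nxph3, a ligand of neurexins, had 26.5 CPM in L6 CT, 0.0393 CPM in IT and 0.0164 CPM in ET cells, was read in 35.4% of thinned L6 CT cells and had 30.5 CPM in L6b cells. Among calcium-binding proteins 5 of 13 were higher, led by the neurocalcin gene Ncald, with a median L6 CT cell of 772 CPM, and 2 were lower, Calb1 and Hpcal1. Against IT cells alone 3 of 13 were higher and 2 lower. In the cells of the main year 3 of 13 were higher and 1 lower, and against the IT cells of that year 1 was higher and 1 lower.

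**Figure D4:**
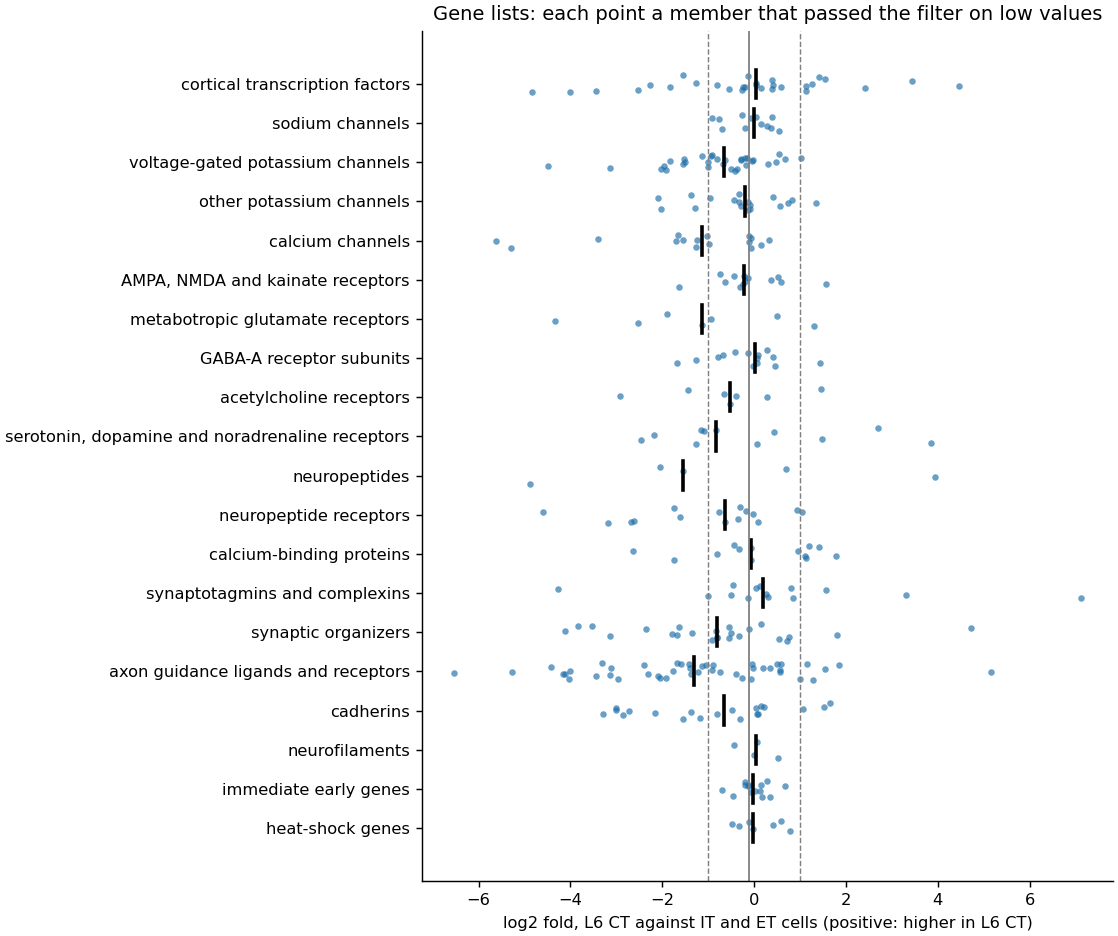
Log2 fold of L6 CT against IT and ET cells together for 20 gene lists, positive where L6 CT was higher. Each point is a member that passed the filter on low values, the bar is the list's median, the grey line is the median of all genes tested (-0.12) and the dashed lines mark -1 and 1. The calcium channel and axon guidance lists have medians of -1.14 and -1.30, and the sodium channel, immediate early and heat-shock lists lie between the dashed lines.

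The IT and ET cells were also taken one at a time. Against IT cells alone, 516 of 10866 genes (4.75%) were higher and 1687 (15.5%) lower in L6 CT cells. Against ET cells, 1590 of 11160 (14.2%) were higher and 2471 (22.1%) lower. The genes furthest above ET cells were Rprm, Fxyd6, Col5a1, Ncald and Nptx1. Fxyd6, a regulator of the sodium pump, had 293 CPM in L6 CT cells and 0.361 CPM in ET cells, with 68.8 CPM in IT cells. Ncald had 1377, 13.4 and 516 CPM in that order, and the neuronal pentraxin gene Nptx1 had 564, 6.94 and 206 CPM. These 3 genes were lowest in ET cells, and L6 CT cells were above IT cells as well.

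The genes furthest below ET cells were Tafa1, Coro6, Tmem200a, Lingo2 and Adamts18. Coro6, which encodes a coronin of the actin cytoskeleton, had 1.95 CPM in L6 CT and 435 CPM in ET cells. Tmem200a had 0 counts in all 83 L6 CT cells and 99.6 CPM in ET cells, at least 4568-fold lower in L6 CT cells against a floor of 3 counts over the group. Adamts18 had 1 count in L6 CT cells and 86.9 CPM in ET cells, a ratio of 11963 (exact interval 2147 to 472548). Against the 5 ET cells of the main year all 5 high and all 5 low genes stayed past the fold, where the same sign had been required of them. In intronic counts all 5 low genes and 3 of the 5 high ones did, with Col5a1 at a log2 fold of 0.98 and no value for Rprm.

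The Cpa6 and Pou3f2 t-types were compared next, and the second group is small. Of the 12 L6 CT markers, all of which passed the filter here, 5 (Cpa6, Rprm, Sla, Col5a1 and Thsd7b) were past the fold in favour of Cpa6 cells and 0 in favour of Pou3f2 cells. The 16 Pou3f2 cells came from 14 recording days and the deepest of them held 25.5% of their counts, whereas the deepest of the 65 Cpa6 cells held 7.60%. The median intronic share was 31.8% in Cpa6 and 8.33% in Pou3f2 cells. Of the 10138 genes tested, 2628 (25.9%) were higher and 1269 (12.5%) lower in Cpa6 cells, with a median log2 fold of 0.18. A log2 fold of 1 or more was therefore common between these groups, and a list is read against those shares.

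Foxp2 had 162 CPM in Cpa6 and 103 CPM in Pou3f2 cells, and its median cell had 91.9 and 65 CPM. Tle4 had 122 and 191 CPM, and Syt6 198 and 375 CPM. None of these 3 passed the fold, and on the 8 days with both t-types Foxp2 was higher in Cpa6 cells on 4 and lower on 4. Rprm had 516 and 229 CPM and Col5a1 267 and 58.2 CPM. Col5a1 was higher in Cpa6 cells on 7 of 8 days, whereas Rprm fell short of the fold in cells with at least 20% intronic counts, with a log2 fold of 0.40.

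The genes that name the t-types were low in both. Cpa6 had 23.2 CPM in the Cpa6 t-type (2383 counts) and 0.204 CPM in the Pou3f2 t-type (6 counts, interval 0.0747 to 0.443 CPM). It was read in 22 of 65 and 3 of 16 cells, and its median was 0 in each. The homeobox gene Pou3f2 (chromosome 4, 22482780 to 22488366) had 1.54 CPM in the Cpa6 and 13.5 CPM in the Pou3f2 t-type. Reads of it were found in 6 of 65 and 5 of 16 cells. Most cells of either t-type thus had no read of the gene in their name, and IT cells had more Pou3f2 RNA (29.9 CPM) than the cells named after it.

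The gene with the largest fold between them was Chrm3 (chromosome 13, 9875486 to 10360847), the muscarinic M3 receptor gene. It had 97.6 CPM in Cpa6 cells and 0.102 CPM in Pou3f2 cells, where 3 counts were found in 2 cells, a ratio of 959 (exact interval 328 to 4649.8). The median Cpa6 cell had 8.36 CPM and the highest 895 CPM, and 53.1% of thinned Cpa6 cells and 0 of 16 thinned Pou3f2 cells had a read, the latter allowing a share of up to 20.6%. Chrm3 was higher in Cpa6 cells on 6 of 8 shared days and lower on none, and its log2 fold was 6.96 in cells with at least 20% intronic counts and 2.10 in intronic counts. Among the other 9 highest genes, Cobl, an actin nucleator, had 57.9 and 3.22 CPM, and the cilium gene Tctn3 had 164 and 11.4 CPM. Of the 10 highest genes 5 stayed past the fold in intronic counts, and Cobl was at a log2 fold of -0.08 there.

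In the other direction, Rspo2, an activator of Wnt signalling, had 200.4 CPM in Pou3f2 cells, read in 9 of 16, and 17.6 CPM in Cpa6 cells, read in 7 of 65. Fancd2 was read in 12 of 16 Pou3f2 and 31 of 65 Cpa6 cells, with median cells of 105 and 0 CPM. Psmf1, an inhibitor of the proteasome, had 157 and 21.6 CPM, and was lower in Cpa6 cells on 6 of 8 days. These 3 kept a log2 fold of -1 or less in cells with at least 20% intronic counts, at -4.22, -1.99 and -3.03. Over the 10 lowest genes 4 did so there (35 and 7 cells), where 20.8% of all genes were lower. Of the 10, 7 did so without the deepest cell of each group and 3 in intronic counts. Cast, the first of the 10 by fold with 10.5 and 133 CPM, turned to a log2 fold of 1.41 in the cells with at least 20% intronic counts.

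Of the gene lists, 9 of 15 cadherins and 6 of 14 immediate early genes were higher in Cpa6 cells and 0 lower, where 25.9% of all genes were higher. In cells with at least 20% intronic counts the numbers were 6 higher and 4 lower of 18 cadherins and again 6 and 0 of 14 immediate early genes, and on shared days 2 and 0 of the latter. Markers of other cell types also differed. Of 4 tested GABAergic markers 3 were higher in Cpa6 cells, with Gad1 at 15.1 and 0.746 CPM and Gad2 at 12.1 and 0.509 CPM. The astrocyte gene Apoe had 125 CPM in Cpa6 and 30.2 CPM in Pou3f2 cells, and Mobp 474 and 222 CPM. The part of such RNA in the t-type differences was not tested. The neurofilament genes Nefl, Nefm and Nefh were lower in Cpa6 cells. Nefm, the medium subunit, had 145 CPM in Cpa6 and 798 CPM in Pou3f2 cells, with median cells of 88.4 and 238 CPM and a log2 fold of -2.41 in cells with at least 20% intronic counts, and Nefl 228 and 502 CPM. Nefh had 18.6 and 85.8 CPM, but its log2 fold of -2.15 became -0.25 without the deepest cell of each group. The activity-regulated gene Npas4 had 311 CPM in Cpa6 and 102 CPM in Pou3f2 cells.

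**Figure D5:**
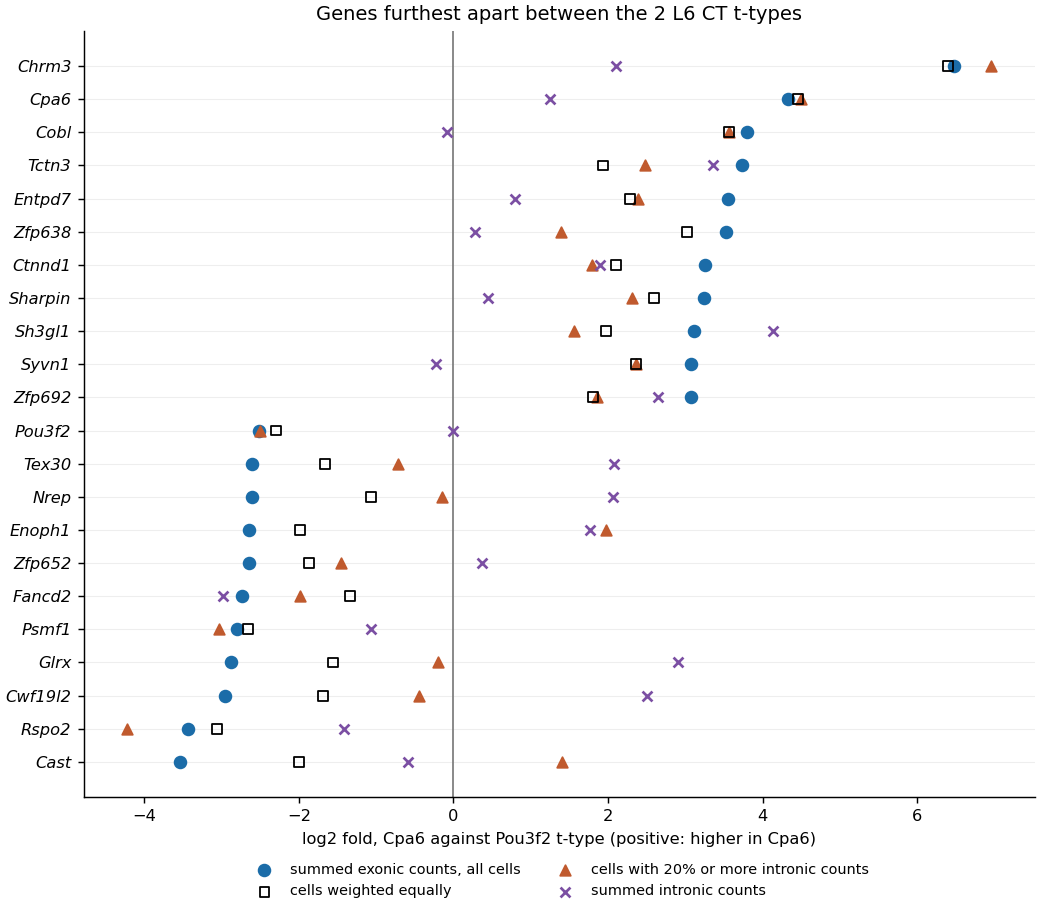
Log2 fold of the Cpa6 against the Pou3f2 t-type for the 10 highest and 10 lowest genes and for Cpa6 and Pou3f2, positive where the Cpa6 t-type was higher. Circles are summed exonic counts, squares cells weighted equally, triangles cells with at least 20% intronic counts and crosses intronic counts. Chrm3, Cpa6, Rspo2, Fancd2 and Psmf1 stay on 1 side of 0 in all 4, whereas Cast, Enoph1, Nrep, Glrx and Cwf19l2 do not.

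Finally, the 10 most similar cells of each L6 CT cell were sought among the 413 L6 CT, IT, ET, L6b and near-projecting (NP) cells, with the cell's own recording day left out, by correlating log2(CPM + 1) across 1000 genes of high variability. Since the t-types were assigned from the same RNA, an excess of L6 CT neighbours is not independent of the label. The interval below covers counting error over cells only. L6 CT cells formed 20.1% of the pool of 413 cells. The pool was not matched for year, and 82 of 83 L6 CT, 88 of 253 IT and 5 of 48 ET cells were from the main year. L6 CT cells thus held a larger share of the cells of that year than 20.1%, and the part of the year was not tested. Of the neighbours of L6 CT cells 60.7% were L6 CT, 29.5% IT, 4.58% ET, 5.18% L6b and 0% NP cells. The majority of neighbours were L6 CT for 52 of 83 cells (62.7%, exact binomial interval 51.3% to 73%), which was 43 of 65 Cpa6 and 8 of 16 Pou3f2 cells. With 500 genes in place of 1000 it was 41 of 83, 36 of 65 and 5 of 16 cells. The 31 other cells had a median of 1542004 exonic counts, 7376 genes and an intronic share of 33.5%, against 1061128 counts, 5792 genes and 11.2% for the 52. By these medians, the L6 CT cells with mostly L6 CT neighbours had fewer genes and a lower intronic share than the others. Rprm was read in 46 of the 52 and 23 of the 31, and Syt6 in 29 and 24. Of the 31 cells, 16 had more IT than L6 CT neighbours and 0 had more L6b than L6 CT neighbours.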

How the data were processed

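Single neurons of mouse primary motor cortex were measured by Patch-seq. Per the labels and the study's methods, the authors made Smart-seq2 libraries without molecular identifiers, demultiplexed them with bcl2fastq 2.20, aligned reads to mm10 with STAR 2.5.4b and deposited whole-number exonic and intronic counts per gene, with spike-in rows. The submitters' processing notes name these versions, and the study's methods name zUMIs as the counter. Both tables held 42381 genes and 1329 columns, of which 9 matched no sample and were not used. The 85 spike-in rows, 5.95% of the exonic counts in L6 CT cells, were left out of totals. Exonic counts were read for 413 glutamatergic cells and intronic counts for 384, which leaves out L6b and NP cells. The tables of cells recorded at 34 °C were not used.

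For each group the counts of its cells were added and scaled to 1000000 gene counts (CPM). Sums have exact Poisson intervals (95%) and shares of cells exact binomial (Clopper-Pearson) intervals, and both cover counting error only, since PCR reads are not independent molecules. With no animal named, a group counts as 1 sample and no test was run. Levels by recording day compare the mean of the cells of both groups on the day. Detection was compared after each cell was thinned to 200000 exonic counts.

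Members, gene lists and rules were chosen with earlier results of these data known. Named genes were the 12 L6 CT markers, then the 15 highest and 15 lowest folds against IT and ET cells (10 and 10 between t-types plus Cpa6 and Pou3f2, 5 and 5 against ET cells), and up to 4 members of each of 34 lists, and the text gives a selection. For the ranked genes at least 50 CPM and a read in at least 50% of cells of the higher group were required, with the same sign in cells of the main recording year, without Gm, Rik, pseudogene or mitochondrial symbols. Other list members were named after their values were seen, to give the direction of a list. Of the symbols listed, 3 were not in the tables. Neighbours were sought among the 413 glutamatergic cells that were read rather than all typed cells, as first planned. Positions are from GENCODE M21 on GRCm38. The computation was tested on simulated data and run in Python 3.11.15 with numpy 2.4.6, scipy 1.17.1, pandas 2.3.3 and matplotlib 3.10.9.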

Additional observations from a re-analysis of the deposited data

How the results depend on the processing

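Against IT and ET cells together, the folds of the 30 ranked genes had 330 values under the alternatives, of which 235 lay within 0.5 log2 units of the reported fold, 95 moved further and 0 changed sign. The same counts were 66, 34 and 0 of 100 for the 10 genes ranked against ET cells, and 146, 85 and 11 of 242 for the 20 ranked between the t-types with Cpa6 and Pou3f2. Rprm has no intron and is counted as moved in intronic counts, where it can give no value. List members are not in these counts, and the ET marker Slco2a1 went from -1.80 to 0.87 in the main year. Scaling by the median of ratios shifted folds by -0.03 to 0.05. The restriction to cells with at least 20% intronic counts was chosen after the data were seen.

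The number of genes past the fold depended on the cells and the filter. Against IT and ET cells together, 840 genes were higher in cells with at least 20% intronic counts. In shared recording days, which held no ET cell, 798 were higher. A pseudocount of 10 CPM gave 266 higher and 914 lower, a minimum of 50 CPM gave 269 and 504, and no filter gave 968 and 4592. Against IT cells alone, 798 were higher in shared days and 899 with at least 20% intronic counts, and the 3 other settings gave 260 and 863, 249 and 489, and 1047 and 4252. Against ET cells, 3378 were higher with the cells of the main year alone, of which 5 were ET cells, and the 3 settings gave 988 and 1540, 878 and 906, and 2451 and 5647. No value for shared days could be had there. Between the t-types, 2748 were lower in shared days and 2261 with at least 20% intronic counts, a minimum of 50 CPM gave 997 higher and 695 lower, and no filter gave 5060 and 2204.

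The share of higher genes among those past the fold also moved. It was 22.2% against IT and ET cells and 34.8% with a minimum of 50 CPM. It was 39.2% against ET cells, 53.9% with the cells of the main year and 49.2% with the minimum of 50 CPM. Between the t-types it was 67.4%, and 56.5% with cells weighted equally, 54.1% in shared days, 55.9% in intronic counts, 54.5% with at least 20% intronic counts and 58.9% with the minimum of 50 CPM.

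Between the t-types, intronic counts turned the log2 folds of Cobl to -0.08, Syvn1 to -0.23, Cwf19l2 to 2.50, Glrx to 2.91, Zfp652 to 0.37, Enoph1 to 1.77, Nrep to 2.06 and Tex30 to 2.08. In cells with at least 20% intronic counts Cast turned to 1.41 and Enoph1 to 1.97, and without the deepest cell of each group Cwf19l2 turned to 0.67. The share of L6 CT cells with mostly L6 CT neighbours was 49.4% with 500 genes and 79.5% with 5 neighbours. The cause of these changes was not tested. No paired analysis was possible because the labels give no animal and a replicate number only names a cell. Recording days that hold both groups are described by the number of days in each direction. The values rest on 83 cells of an unknown number of mice, and the Pou3f2 t-type on 16.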
